A study of Mus musculus with 2 samples.

Results

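Slc40a1, which encodes ferroportin, the iron exporter of the cell surface, was 5.17-fold lower in IL-4-treated BMDMs than in untreated BMDMs, and Tfrc, which encodes the transferrin receptor that takes up iron, was 2.12-fold higher. The heme-degrading enzyme gene Hmox1 and the phagosomal metal transporter gene Slc11a1 were lower by 1.57-fold and 1.56-fold. The ferritin genes Fth1 and Ftl1, the ferroxidase gene Cp and the iron regulatory protein genes Ireb2 and Aco1 differed by at most 1.11-fold at every probe. The iron handling and heme genes described here are those named above with the endosomal iron transporter gene Slc11a2, 10 genes chosen by name for their role. Every probe whose RefSeq accession belongs to one of them was read, which gave 15 probes of the 39429 gene probes on the array and 10 genes of the 20652 that could be named.

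BMDMs are bone marrow-derived macrophages, here cultured from mouse marrow cells with M-CSF, and the cytokine IL-4 brings such cells to the state called M2. The comparison asks how the mRNA content of these cells differs after IL-4. The marrow came from male mice, 8 weeks old, that were Crif1 f/f, meaning that both copies of Crif1 carry loxP sites, and the methods name no Cre for these cells. Both groups share this allele. One group was left untreated and the other received IL-4 for 18 h, and the label of the untreated sample also gives 18 h. The dose on these arrays and the number of mice behind each RNA are not given in the sources used here. Each condition was hybridised to 1 single-colour Agilent array, so there was no replicate check and no p-value can be given. Both arrays lay on the same slide, and position on the slide and condition cannot be told apart.

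Macrophages handle most of the iron that the body recycles, because they take up aged red cells, break down their heme and return the iron to plasma. Iron bound to transferrin enters cells through the transferrin receptor, and heme oxygenase 1 sets iron free from heme. DMT1 (Slc11a2) moves iron across the endosomal membrane and NRAMP1 (Slc11a1) across the phagosomal membrane. Iron is stored in ferritin and leaves through ferroportin. Iron regulatory proteins bind stem-loops in the mRNAs of ferritin, ferroportin and the transferrin receptor when iron is scarce, which blocks the translation of ferritin and ferroportin and stabilises the mRNA of the transferrin receptor. Arrays read mRNA amount only, so an effect on translation would not be seen.

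Signals are given as background-subtracted intensity, as the authors' scanner software wrote it. For comparison between arrays the log2 intensity was taken relative to the 75th percentile of its array, which was 9.84 for the untreated array and 9.94 for the IL-4 array, and all differences are IL-4 minus untreated. A probe counted as measured when the software flagged it as well above background, which held for all 15 probes on both arrays, and no spot of a gene probe was saturated. The error beside a difference is the SD of the log2 difference between spots, as its median over probes printed in 10 spots with a mean signal within 1 log2 unit. This error covers spots on these arrays and not the spread between cultures. It does not include the scanner software's own error for each signal. For the member probes that ran from 10% of the signal at Fth1 to 21.9% at the dimmest Tfrc probe on the untreated array. Levels are not compared between different genes, since probes differ in how strongly they bind. In bulk RNA, fewer cells that express a gene and less RNA per cell cannot be told apart.

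The M2 markers were all at least 2-fold higher on the array labelled IL-4, by 216-fold for Arg1 and 5.33-fold for Mrc1. All 7 measured macrophage markers were well above background on both arrays, with a summed signal of 324 times the 75th percentile intensity in untreated BMDMs and 279 after IL-4. Within that list 5 genes were lower, beside 6661 of the 12741 genes measured on both arrays. Cd14, Mertk and Fcgr1 were lower by 2.68-fold, 2.20-fold and 2.34-fold, and Lyz2 and the brightest Itgam probe each by 1.63-fold. Csf1r and Adgre1 had log2 differences of 0.09 and 0.17 at their brightest probes. Lyz2, with intensities of 98702 and 64890, and Csf1r, with 146026 and 166510, weigh most in the summed signal. Of the 7 measured erythroid markers, 3 were well above background on at least one of the arrays, as described beside Slc40a1.

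At a 2-fold limit, 1 of the 10 genes was higher and 1 was lower. Among all 12741 genes measured on both arrays, 2.32% passed this limit upward and 1.44% downward. At a 1.5-fold limit, 1 of the 10 was higher and 3 were lower, beside 5.03% and 5.27% of all genes. The lower genes were Slc40a1, Hmox1 and Slc11a1, of which Slc40a1 alone passed 1.5-fold with median scaling, without scaling and with spike-in scaling, and Hmox1 fell short with normexp, at -0.58. The median log2 difference of the 10 genes was -0.05, and that of all genes was -0.01. With 10 genes these counts are too small to set the list apart from the background, and the description that follows rests on single genes.

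**Figure D1:**
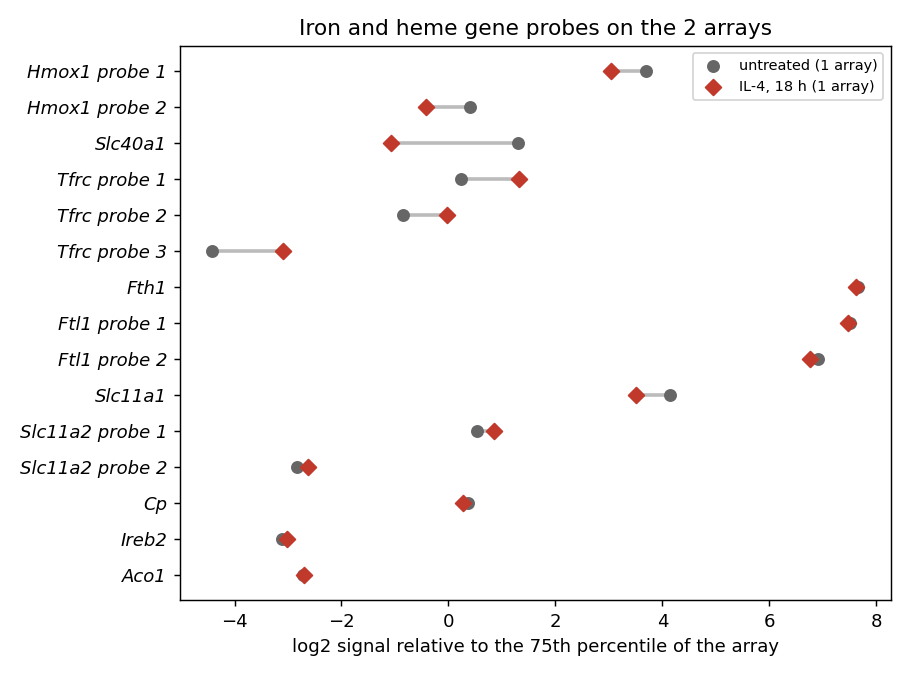
Signal of each iron and heme gene probe on the untreated array (grey circles) and the IL-4 array (red diamonds), as log2 relative to the 75th percentile of the array; where a gene has several probes they are numbered from the brightest. The points of Slc40a1 lie farthest apart, at 1.31 and -1.06, while those of Fth1 lie nearly on each other.

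The iron exporter gene had the largest difference of the 10 genes. The single probe for Slc40a1 had an intensity of 2263 in untreated BMDMs and 469 after IL-4. The log2 difference was -2.37 ± 0.058 (SD between spots, 84 probes in 10 spots), or 5.17-fold lower. Of the 12741 genes measured on both arrays, 3 had a lower difference and 12737 a higher one. The 1746 genes with a mean signal within 0.5 log2 units of this probe had a median difference of -0.01, with a 5th percentile of -0.50. Only 1 probe reads Slc40a1, so no second probe checks its value.

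Ferroportin is also abundant in erythroid precursors, which share the bone marrow with the progenitors of BMDMs. Of the 7 measured erythroid markers, Epor was well above background on both arrays, Slc4a1 on the untreated array only and Ank1 on the IL-4 array only. The summed signal of the list was 0.41 times the 75th percentile intensity in untreated BMDMs and 0.229 after IL-4. Slc4a1, the band 3 anion exchanger of red cells, had an intensity of 206 in untreated BMDMs and was not well above background after IL-4, where it was at least 7.91-fold lower. Ank1, the red cell ankyrin, was at least 1.38-fold higher, and Epor, the erythropoietin receptor, had a log2 difference of 0.06. The hemoglobin gene Hba-a1 was well above background on neither array. The part of such cells in the value of Slc40a1 was not tested.

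Cp, ceruloplasmin, oxidises exported iron so that transferrin can bind it. It differed from Slc40a1 in that its intensities were nearly equal, at 1172 in untreated BMDMs and 1178 after IL-4, with a log2 difference of -0.09 ± 0.058 (82 probes). Hamp, which encodes the hepcidin that removes ferroportin from the surface, and its relative Hamp2 were well above background on neither array.

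In iron uptake, the mRNA of Tfrc was higher at each of its probes. The brightest Tfrc probe was printed in 10 spots, the only one of the 15 with repeated spots. Its intensity ran from 1018 through a median of 1072 to 1117 in untreated BMDMs and from 2318 through 2444 to 2531 after IL-4, so the spots of the arrays did not overlap. The log2 difference was 1.09 with an SD of 0.043 over its own 10 spots, each of which had a difference between 1.04 and 1.18. Of all genes, 255 had a higher difference.

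**Figure D2:**
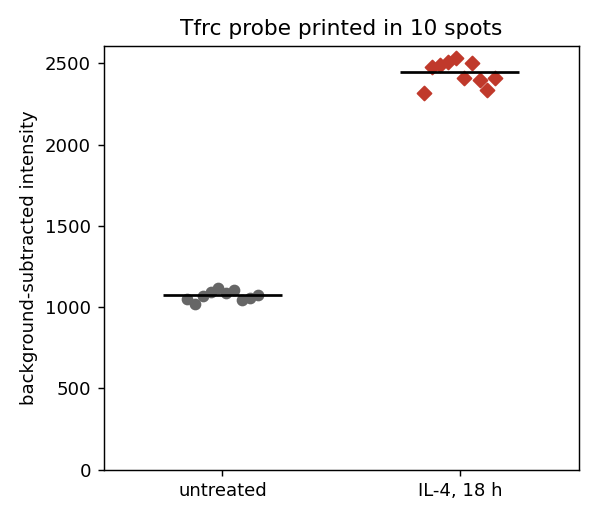
Background-subtracted intensity of the Tfrc probe in each of its 10 spots per array, untreated and IL-4, with a line at the median. The untreated spots end at 1117 and the IL-4 spots begin at 2318; the spots repeat 1 RNA per condition and are not separate cultures.

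The other Tfrc probes were each printed once. One had intensities of 505 and 958, a log2 difference of 0.83 ± 0.061 (79 probes), and fell short of 2-fold. The dimmest had intensities of 42.8 and 114.8 and a log2 difference of 1.32 ± 0.21 (39 probes). Its untreated signal lay close to the lowest intensity flagged well above background on that array, 29.2, and with a normexp background step the difference was 0.35. All 3 probes were thus higher after IL-4, with a spread of 0.50 log2 units between them, which is larger than the error of the brighter probes.

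As Tfrc was the member past the 2-fold limit upward, the RefSeq windows from 250 bases before to 50 bases after its start sites were read for short motifs on both strands. The letters TGACGT, the core of a cyclic AMP response element, were present in both Tfrc windows, which overlap, and in no window of the other members read. They occur in 7.51% of the 32851 windows of the table. The stretch around them lies at chr16:32608897-32608926 on the plus strand of GRCm38.p6, just after the first annotated Tfrc start and 213 bases before the second, with the motif in capitals.
Tfrc: tgcggaaggaagTGACGTagatccagaggg
Windows were found for 7 of the 10 genes and not for Hmox1, Slc40a1 and Slc11a2. None of the 10 windows of these genes held a STAT6-type palindrome, the antioxidant response element TGACNNNGC or the E-box CACGTG, which were present in 6.95%, 12.4% and 7.15% of all windows. The GC box GGGCGG was present in 5 of the 10 and in 35.7% of all windows. A window without a motif says nothing of whether its factor binds elsewhere.

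The transporters that move iron out of endosomes and phagosomes went opposite ways. Slc11a1, which encodes NRAMP1 of the macrophage phagosome, had an intensity of 16171 in untreated BMDMs and 11117 after IL-4, a log2 difference of -0.64 ± 0.046 (31 probes). The 766 genes of similar signal had a 5th percentile of -0.38, so Slc11a1 lay below it. Slc11a2, which encodes DMT1 of the endosome, had intensities of 1322 and 1765 at its brighter probe and 129.0 and 158.7 at its dimmer one. The log2 differences were 0.32 ± 0.058 (73 probes) and 0.20 ± 0.12 (45 probes), both inside the range between the 5th and 95th percentiles of genes of similar signal.

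The iron storage genes had nearly equal signals. Fth1, the ferritin heavy chain that oxidises iron, had an intensity of 185198 in untreated BMDMs and 192573 after IL-4, which became a log2 difference of -0.04 after scaling. The probes for Ftl1, the ferritin light chain, had intensities of 167302 and 173073 at the brighter and 110442 and 106768 at the dimmer one, with log2 differences of -0.05 and -0.15. The error at this signal was 0.057 for Fth1 and the brighter Ftl1 probe and 0.058 for the dimmer one, but it rests on 2 probes. None of the 3 probes was saturated. The sign of these small differences depends on scaling, since they were 0.17 to 0.28 with spike-in scaling. The RefSeq table names ferritin copies such as Ftl1-ps1, Ftl2-ps and Fth-ps2, and the probe sequences were not used here, so signal from copies cannot be told apart.

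**Figure D3:**
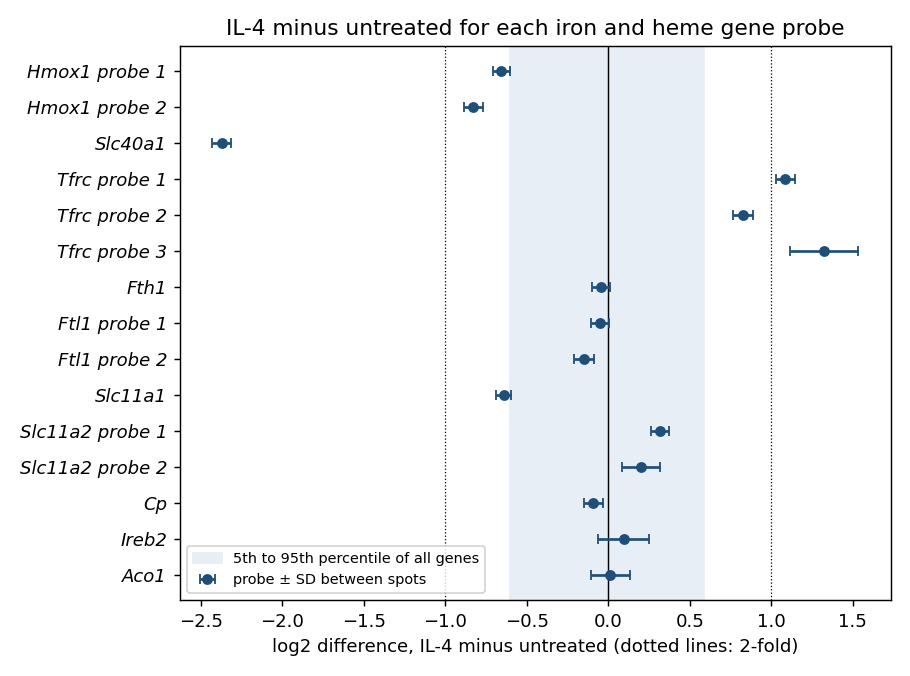
Log2 difference, IL-4 minus untreated, of each iron and heme gene probe, with the SD between spots as error bar; the shaded band runs from the 5th to the 95th percentile of all genes well above background on both arrays, -0.60 to 0.59, and dotted lines mark 2-fold. Slc40a1, both Hmox1 probes and Slc11a1 lie to the left of the band and the 3 Tfrc probes to the right.

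The heme breakdown gene of the list was lower. Hmox1, heme oxygenase 1, which opens the heme ring and frees its iron, had an intensity of 11790 in untreated BMDMs and 8023 after IL-4 at the brighter probe. A dimmer probe had intensities of 1211 and 731. The log2 differences were -0.65 ± 0.050 (36 probes) and -0.83 ± 0.059 (77 probes), so the probes went the same way and were 0.17 apart. Of all genes, 535 had a lower difference than the brighter probe.

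The sensors of cell iron showed little difference. Ireb2, which encodes IRP2, had intensities of 105.4 and 120.7 and a log2 difference of 0.10 ± 0.16 (42 probes). Aco1, which encodes IRP1, had intensities of 139.4 and 150.7 and a log2 difference of 0.01 ± 0.12 (45 probes). Both differences were smaller than the spot error. Genes of similarly low signal had a median difference of -0.10 for each, so dim probes as a whole were slightly lower on the IL-4 array.

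The other genes of iron and heme handling were read from a list of 65 genes in 8 roles, of which 54 were measured on both arrays, 3 on the untreated array only and 8 on neither. At 2-fold, none was higher and 2 were lower, Bmp6 and Spic, beside 3.06% and 3.35% of the 14070 genes measured on 1 array or both. The median log2 difference of the 54 genes was -0.05. At 1.5-fold, 1 gene was higher, Bach1, and 6 were lower, beside 6.36% and 8.95% of these genes. Besides Bmp6 and Spic the lower ones were Slc25a37, Lcn2, Tmprss6 and Flvcr2. The genes at 1.5-fold were named after their values were seen.

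The other 3 genes of heme breakdown had differences below 0, as had 6661 of the 12741 genes measured on both arrays, and none reached 1.5-fold, though Hmox2 passed it with quantile normalization, at -0.61. Hmox2, the constitutive heme oxygenase, had intensities of 6849 and 5043 at its brighter probe and a log2 difference of -0.54. Blvrb and Blvra, the biliverdin reductases that make bilirubin, had log2 differences of -0.37 and -0.26. With spike-in scaling these became -0.22 for Hmox2, -0.05 for Blvrb and 0.06 for Blvra, so the sign of Blvra depends on scaling. In heme synthesis, Alas1, the rate-limiting enzyme outside red cells, had intensities of 16400 and 26290 and a log2 difference of 0.58, with 0.59 at its dimmer probe. The other 8 synthesis genes measured, Alad and Fech among them, lay between -0.28 and 0.24, and the erythroid form Alas2 was well above background on neither array.

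Among the regulators, Spic, a transcription factor needed for the iron-recycling red pulp macrophages of the spleen, had an intensity of 124.5 in untreated BMDMs and was not well above background after IL-4. It was at least 4.78-fold lower, a bound set by the lowest signals on the IL-4 array, and with a normexp background step its log2 difference was -1.10 in place of -2.26. Bach1, the heme-sensing repressor of Hmox1 and of the ferritin and ferroportin genes, had intensities of 2261 and 3882 and a log2 difference of 0.68 ± 0.053. Nfe2l2, the activator that competes with it, had a log2 difference of -0.17. The 3 Epas1 probes had log2 differences of 0.39, -0.22 and 0.25, so its direction depends on the probe.

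**Figure D4:**
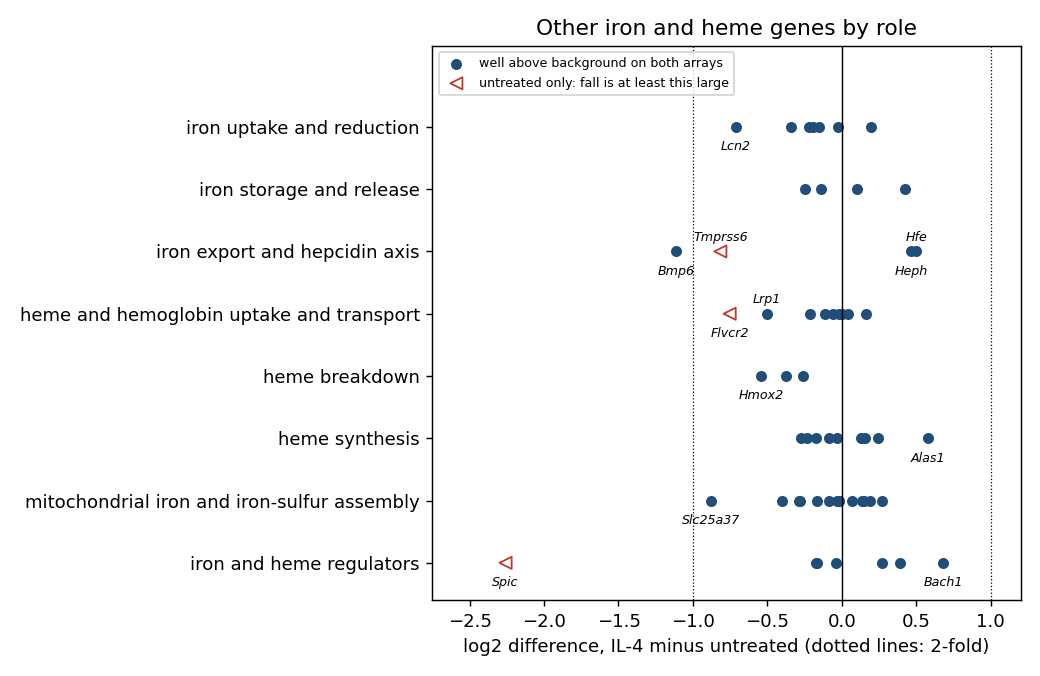
Log2 difference, IL-4 minus untreated, of the other iron and heme genes by role; filled circles are genes well above background on both arrays, open triangles those measured on the untreated array only, where the difference is at least as large as drawn, and dotted lines mark 2-fold. Most circles lie within 0.5 of 0, with Spic at -2.26 as the farthest point.

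In mitochondria, Slc25a37, mitoferrin 1, which brings iron into the matrix, had intensities of 5113 and 2973 and a log2 difference of -0.88, with -0.86 at its dimmer probe. Its relative Slc25a28, mitoferrin 2, had a log2 difference of -0.29. The 14 genes of this role had a median of -0.03, and Glrx5, Iscu and Nfs1, which build iron-sulfur clusters, had log2 differences of 0.14, 0.19 and -0.03.

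In uptake and storage, the transferrin gene Trf had a log2 difference of -0.15 at its brighter probe and -0.24 at the dimmer one, and Steap3, which reduces iron in the endosome, had -0.20 and 0.19. Pcbp1, a chaperone that loads ferritin, had 0.10 and Ncoa4, which delivers ferritin to lysosomes, had -0.14. Lcn2, lipocalin 2, which binds bacterial siderophores and is also a neutrophil granule protein, had intensities of 1542 and 1009 and a log2 difference of -0.71. All 8 measured neutrophil markers were well above background on both arrays. Of these, 7 were lower, beside 6661 of the 12741 genes measured on both arrays. Ngp, Camp, Mmp8 and Ltf had log2 differences of -0.80, -0.61, -0.61 and -0.54. Elane, S100a8 and S100a9 had -0.23, -0.17 and -0.10, and Mpo had 0.30. The summed signal of the list was 44.4 times the 75th percentile intensity in untreated BMDMs and 39.2 after IL-4. S100a9 had the highest intensities of the list, 26443 and 26347, so it weighs most in this sum. The part of neutrophils in the value of Lcn2 was not tested.

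Bmp6, a growth factor that induces hepcidin, had intensities of 61.2 and 30.3 and a log2 difference of -1.11 ± 0.28, near the floor of both arrays. It was short of 2-fold with median scaling at -0.90, quantile normalization at -0.77, cyclic loess at -0.91, spike-in scaling at -0.79 and normexp at -0.55. Hfe and Heph had log2 differences of 0.50 and 0.47, where Hfe binds the transferrin receptor and Heph is a membrane ferroxidase. Of the heme and hemoglobin uptake and transport genes, 8 were measured on both arrays. Among these, 3 were higher and 5 lower, beside 6080 and 6661 of the 12741 genes measured on both arrays. Cd163 was well above background on neither array, Lrp1, which takes up hemopexin with heme, had a log2 difference of -0.50, and the heme transporter genes Slc48a1 and Flvcr1 had -0.11 and -0.06.

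Across 11 other ways of processing, Slc40a1 stayed between -2.43 and -2.05 and the brightest Tfrc probe between 1.02 and 1.41. Both Hmox1 probes and Slc11a1 were lower and both Slc11a2 probes higher in each of them. The signs of Fth1, Ftl1, Cp, Ireb2 and Aco1 changed with at least 1 of them. Not all of these ways could move a member probe. The rules for dim probes left each value equal, and kept outlier spots and the authors' values left it nearly equal. Scaling by another single value per array, or none, shifts every probe by the same amount. Only quantile normalization, cyclic loess and normexp can move one probe relative to another.

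**Figure D5:**
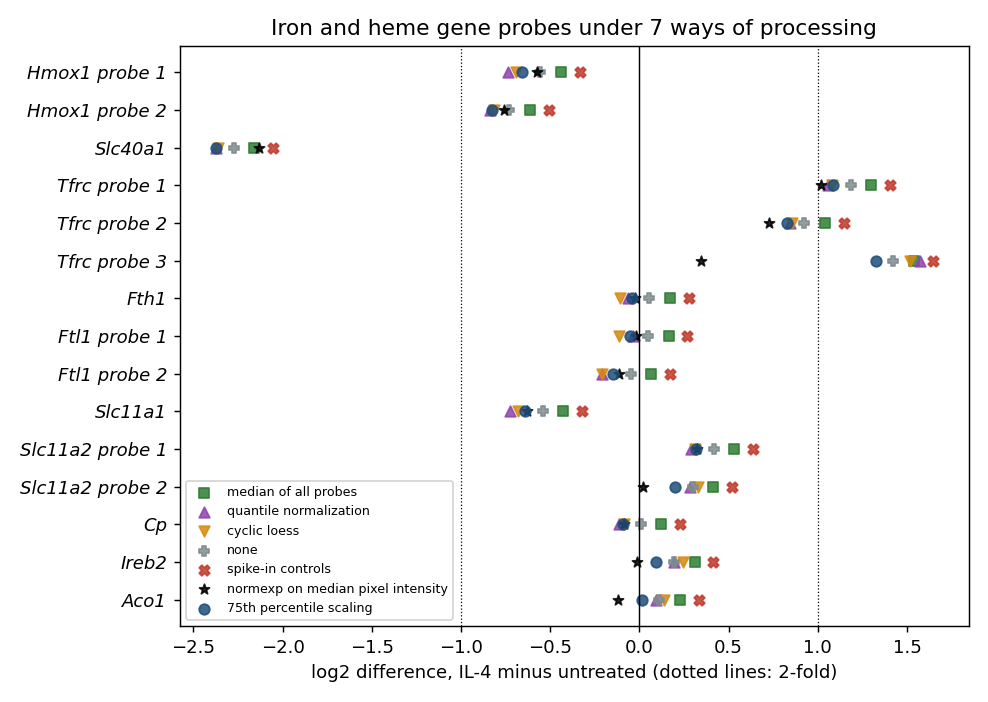
Log2 difference, IL-4 minus untreated, of each iron and heme gene probe under 75th percentile scaling and 6 of the alternatives, with 2-fold as dotted lines. Spike-in scaling moves every probe to the right by 0.32, and normexp moves the dimmest Tfrc probe from 1.32 to 0.35, while Slc40a1 stays left of the 2-fold line under all 7.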

How the data were processed

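Per the file headers, the authors deposited output of Feature Extraction 10.10.1.1, whose intensity values are background-subtracted and detrended within the array, not scaled between arrays. They also deposited log2 values per probe, for which neither tool nor centring is given in the sources used here; those columns had medians of 0.16 and 0.02.

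Control and outlier spots were left out, spots of 1 probe were averaged as log2 values, and each array was centred on its 75th percentile. A gene was read from its brightest probe. A probe flagged on 1 array has a bound, for which the dim array's value is its own signal or the lowest flagged signal, whichever is larger, and a probe flagged on neither has no fold. Names came through RefSeq accessions of GRCm38.p6, which matched 27228 of 39429 probes; the design was annotated on mm9, so no probe coordinates are given. Named genes are the 10 members and, from the wider list, those at least 2-fold changed and the brightest of each role, with others as group examples or extremes chosen after values were seen. Members and lists were chosen with earlier results of these data known.

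With 1 array per condition no test was run. The counting code was run on simulated data as a check of its arithmetic only. Python 3.11.15, R 4.3.3 and limma 3.58.1 were used. Alternatives were other scalings, normexp with an added offset of 50, outlier spots kept, other rules for dim or several probes, other fold limits and the authors' log2 values. Their number, 1 array per condition, limits the precision.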

Additional observations from a re-analysis of the deposited data

How the results depend on the processing

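No paired analysis was possible because there is a single array for each condition. At 2-fold the counts of 1 higher and 1 lower member gene were equal under every scaling, background step and filter tried. The filters on dim probes could not change them, since every member probe was flagged on both arrays. With other fold limits the higher gene became 0 at 3-fold and the lower gene became 3 at 1.5-fold. That 1.5-fold count of 3 became 1 with median scaling, without scaling and with spike-in scaling, and 2 with normexp, and the 1 higher gene became 2 with spike-in scaling. The median log2 difference of the members, -0.05, moved to 0.17 with median scaling, 0.053 without scaling and 0.27 with spike-in scaling, while the median of all genes moved by 0.21, 0.10 and 0.32. Of the wider list, the count of 0 higher genes became 1 with spike-in scaling, 2 with no filter on dim probes and 1 at 1.5-fold. The count of 2 lower genes became 1 with median scaling, quantile normalization, cyclic loess, spike-in scaling, normexp, a filter that needs both arrays and a 3-fold limit. It became 4 in the authors' processed values and with no filter, and 6 at 1.5-fold. The authors' values were read without bounds for probes flagged on 1 array, as with no filter, so their count of 4 comes from that rule. Filters and fold limits change these counts by construction. Median scaling, no scaling and spike-in scaling each shift every probe by the same amount, so genes near a limit can cross it. Normexp was run with an offset of 50 added to every intensity, which makes the differences of dim probes smaller. For quantile normalization and cyclic loess the cause was not tested. No single gene past 2-fold changed sign. For the 15 member probes the authors' processed differences lay at most 0.00057 from the scanner differences. Signal close to background limits Bmp6, Spic, Tmprss6, Flvcr2 and the dimmest Tfrc probe. Tmprss6 and Flvcr2 were not followed one by one through the alternatives.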
